A study of Mus musculus with 2 samples.

Results

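The smooth muscle contractile genes are 10 genes whose products form or regulate the actomyosin apparatus of smooth muscle: Myh11, Myl9, Mylk, Actg2, Tpm2, Cnn1, Lmod1, Tagln, Smtn and Synpo2. Their probes were all non-control probes whose RefSeq accession belongs to one of these genes, which gave 18 probes for the 10 genes, of 22911 genes with a named probe in all. In the study, 1 sample of whole pancreas from WT and 1 from Nrdc-cKO mice, both C57BL/6 males aged 5 weeks, were profiled on 1 Agilent 1-colour array each, to ask what nardilysin (Nrdc), a metalloendopeptidase, does in the exocrine gland. The Nrdc-cKO genotype is Ptf1a-Cre; Nrdcflox/flox, so recombination is driven by Ptf1a, a transcription factor of the pancreatic epithelial lineage and not of smooth muscle. The labels do not say whether WT carried Cre or floxed alleles, nor whether a sample was 1 animal or a pool. Since each group is 1 sample on 1 array, nothing here could be tested against the variation among animals, and each difference below is a description of these 2 arrays.

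In smooth muscle, calcium and calmodulin activate myosin light chain kinase, which phosphorylates the regulatory light chain so that smooth muscle myosin can pull on actin filaments. Tropomyosin, calponin and related proteins lie along these filaments, and several of the genes are driven by serum response factor (SRF) bound to CArG boxes, together with its coactivator myocardin. In pancreas these genes mark the walls of arteries and veins and the muscle around larger ducts, while activated stellate cells and myofibroblasts share some of them. The arrays read whole tissue, so more cells of a type and more RNA per cell cannot be told apart.

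Levels are given as the log2 of the processed spot signal minus the 75th percentile of all probes on that array, which was 70.8 signal units in WT and 227 in Nrdc-cKO, 3.21-fold apart. A gene was measured when it had a probe well above background on both arrays, and its difference, Nrdc-cKO minus WT, is the mean over such probes. Of non-control spots, 46.3% in WT and 60.3% in Nrdc-cKO were well above background. Among all 13001 genes measured the median log2 difference was -0.18. Scaling to spike-in controls instead would place every gene 1.88 higher, so differences below are relative to the bulk of genes, and those between -1.88 and 0 turn positive there. Nrdc fell by 3.21 on this scale, from a level of 1.93 on the WT array to -1.28 on the Nrdc-cKO array, by its 1 probe; the labels do not say whether that probe lies in the deleted part. The tissue label was checked against 7 acinar markers, all of them well above background on both arrays, with a median difference of -1.88. That size depends on the scaling: the median was -0.17 with quantile scaling and 0.0014 with spike-in scaling.

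Most of the contractile genes were higher in Nrdc-cKO. Of the 10 genes, 8 were measured on both arrays, and all 8 had a positive difference (against 41.3% of all genes measured), from 0.44 for Actg2 to 2.13 for Myh11, with a median of 1.56 (2.95-fold). Of these, 6 were at least 2-fold higher (Myh11, Myl9, Mylk, Tpm2, Tagln and Synpo2), against 12.8% of all genes measured, and 0 were at least 2-fold lower, against 17.3%. Only Myh11 was at least 4-fold higher, a size that 3.73% of all genes measured reached. Cnn1 was well above background on the Nrdc-cKO array only, and Lmod1 on neither. A member that was too dim on the WT array leaves the count, so the 8 are not the whole set. The scanner software's own error for a spot, carried to the log2 difference, was between 0.20 and 0.30 for the 9 member probes well above background on both arrays. It covers the spot and not the animal, dissection, RNA or labelling.

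**Figure D1:**
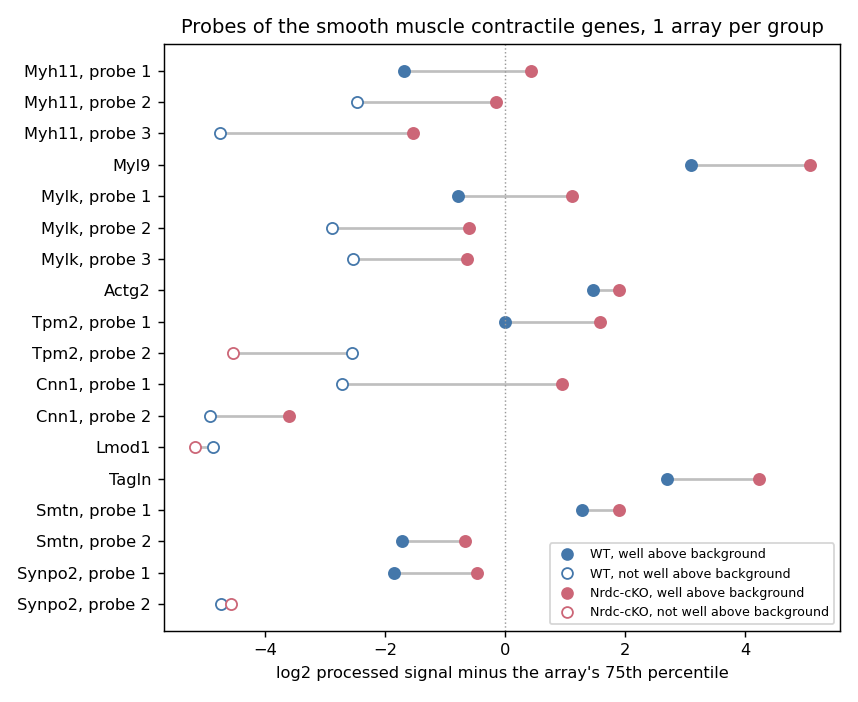
Levels of the 18 probes of the 10 contractile genes on the WT and Nrdc-cKO arrays (x axis, log2 processed signal minus the array's 75th percentile); filled points are well above background, and probes of a gene are numbered by their level on the Nrdc-cKO array. The Nrdc-cKO point lies to the right for all 9 probes that were well above background on both arrays. Of the probes above background on neither, Tpm2 probe 2 and the Lmod1 probe lie to the left and Synpo2 probe 2 to the right.

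**Figure D2:**
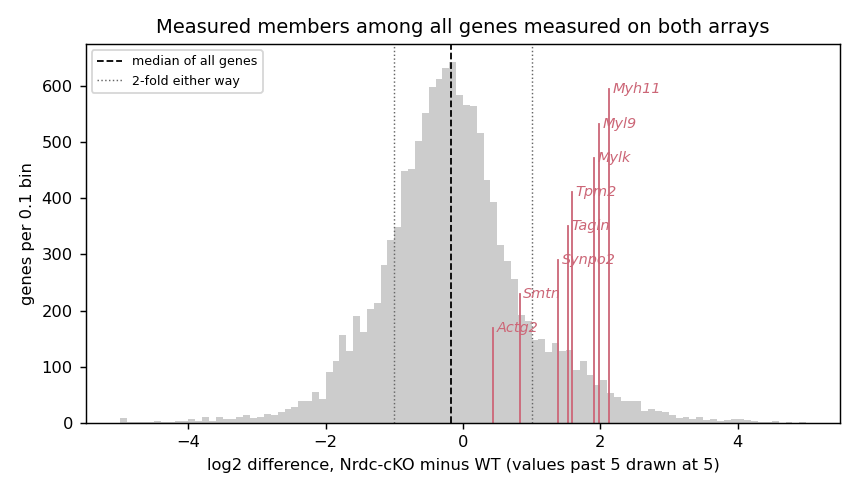
Histogram of the log2 difference, Nrdc-cKO minus WT, of the 13001 genes measured on both arrays, with the 8 measured contractile genes as vertical lines of arbitrary height. The contractile genes lie between 0.44 and 2.13, and all genes have a median of -0.18.

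The myosin motor and its regulation had the widest differences among the measured members in the main scaling, although with normexp background correction Tagln passed Myh11 and Mylk. Myh11, the smooth muscle myosin heavy chain and the most specific marker of the set, had a signal of 21.8 in WT and 306 in Nrdc-cKO. Its level went from -1.70 to 0.43, a difference of 2.13 (4.36-fold), with a scanner error of 0.28. This was above 96.9% of all genes measured. The other 2 Myh11 probes, on another transcript accession, were well above background on the Nrdc-cKO array only, with signals of 205 and 78.7 there. Their bounds were 4.99-fold and at least 2.15-fold higher. A bound sets the bright signal against the higher of the probe's own signal on the dim array and the lowest signal well above background there. Where the probe's own signal is the higher, as for the 4.99-fold, the bound is only that probe's plain ratio. Its scanner error was 0.38 on the log2 scale. These 2 Myh11 probes passed background only on the array where they were high, so their direction adds no support to that of the measured probe. The same limit holds for every bound given below.

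Myl9, the regulatory light chain that the kinase phosphorylates, had a signal of 605 in WT and 7690 in Nrdc-cKO. Its level went from 3.09 to 5.08, a difference of 1.98 (3.96-fold) with a scanner error of 0.20, for a probe far above background on both arrays. With normexp and the 75th percentile it stood at 2.39 while the dimmer Myh11 probe stood at 0.999. Mylk, the myosin light chain kinase, stood at a signal of 40.9 and 494 by its brightest probe, a difference of 1.91 (3.75-fold). Its other 2 probes passed background on the Nrdc-cKO array only, and gave bounds of at least 4.07-fold and of 3.71-fold higher. The latter is that probe's plain ratio. The 3 Mylk probes share 1 transcript accession. Mylk also encodes a long non-muscle kinase and the short protein telokin, and no source used here says which of these each probe reads.

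The promoter of Myl9 is shown because it was the single one among the windows at hand that held a perfect CArG box, the binding motif of SRF. RefSeq windows of 300 bases (250 before to 50 after a transcription start, build GRCm38.p6) matched 7 of the 10 genes. The perfect CArG box occurred in 1.63% of all 32851 such windows, and a CArG box with at most 1 mismatch in 21.1%. Among the 7 members the latter occurred in Myl9 and Lmod1, with 2 matches each. The windows of Myl9 (chr2:156775214-156775513, plus strand), Lmod1 (chr1:135324563-135324862, plus strand) and Cnn1 (chr9:22099003-22099302, plus strand) follow, 5′ to 3′, with each CArG box of at most 1 mismatch in capitals. Lmod1 is shown as the member below background, and Cnn1 as the member with the largest bound.
Myl9: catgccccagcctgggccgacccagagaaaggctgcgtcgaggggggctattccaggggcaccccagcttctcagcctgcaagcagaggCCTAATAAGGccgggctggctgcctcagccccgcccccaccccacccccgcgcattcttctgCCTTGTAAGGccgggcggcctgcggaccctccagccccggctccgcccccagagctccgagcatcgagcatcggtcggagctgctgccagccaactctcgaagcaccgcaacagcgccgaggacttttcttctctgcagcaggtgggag
Lmod1: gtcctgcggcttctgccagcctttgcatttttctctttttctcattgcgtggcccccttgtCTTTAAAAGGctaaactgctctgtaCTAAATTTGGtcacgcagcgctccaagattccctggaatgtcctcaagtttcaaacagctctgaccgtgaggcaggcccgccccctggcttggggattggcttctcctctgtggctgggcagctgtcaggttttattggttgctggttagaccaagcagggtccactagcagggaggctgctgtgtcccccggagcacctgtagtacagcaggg
Cnn1: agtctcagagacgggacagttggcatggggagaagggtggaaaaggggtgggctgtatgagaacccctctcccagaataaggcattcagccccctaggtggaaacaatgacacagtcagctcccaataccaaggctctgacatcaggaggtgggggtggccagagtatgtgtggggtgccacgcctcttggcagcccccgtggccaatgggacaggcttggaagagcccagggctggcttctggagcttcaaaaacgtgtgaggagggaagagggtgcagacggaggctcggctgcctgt
In Myl9 the perfect box, CCTAATAAGG, begins 161 bases before the start and a second site with 1 mismatch, CCTTGTAAGG, 99 bases before it. In Lmod1 the sites with 1 mismatch begin 189 and 164 bases before the start. The Cnn1 window held none, nor did those of Synpo2, Tpm2, Smtn and Mylk. The motif CATTCC, bound by TEAD factors, was found on either strand in 3 of the 7 windows (Lmod1, Smtn and Mylk), against 14.7% of all windows. The motif TATAAA was found on either strand in 1 of the 7 (Synpo2), against 13.6%. A match shows only that these letters are in the window, and for Cnn1 and the others the absence of one says nothing of sites elsewhere.

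The thin filament genes differed more among themselves. Actg2, the smooth muscle gamma actin typical of visceral muscle, had the smallest difference, with a signal of 195 in WT and 851 in Nrdc-cKO. Its level went from 1.46 to 1.90, a difference of 0.44 (1.36-fold) with a scanner error of 0.20, which does not reach 2-fold. Tpm2, the beta tropomyosin, had a signal of 70.4 and 677 by the probe above background, a difference of 1.58 (2.99-fold). A second Tpm2 probe, on another transcript accession, was not well above background on either array, with signals of 12 and 9.8. The Tpm2 difference thus rests on 1 probe, listed under 1 of its transcript accessions. Which transcripts that probe reads was not checked.

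Cnn1, calponin, which inhibits the myosin ATPase on the thin filament and marks differentiated smooth muscle, had a signal of 10.7 on the WT array, not well above background, and 438 on the Nrdc-cKO array. This put Cnn1 higher by at least 3.58 on the log2 scale, the largest size of the set although only a bound. Cnn1 passed background only on the array where it was high, so its direction adds no support to that of the measured genes. Of the 2834 genes that passed background in Nrdc-cKO alone, 24.8% had a bound of at least 2-fold. The second Cnn1 probe was at 18.7 on the Nrdc-cKO array and too dim there for a bound above 1. Lmod1, leiomodin, which nucleates actin filaments, had signals of 2.41 and 6.26 by its 1 probe and was not well above background on either array, so it has no value here.

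The actin-associated genes Tagln, Synpo2 and Smtn lay between Actg2 and Tpm2 in their differences in the main scaling. Tagln, transgelin or SM22, an early marker of the smooth muscle lineage, had a signal of 460 in WT and 4291 in Nrdc-cKO. Its level went from 2.70 to 4.24, a difference of 1.54 (2.90-fold). Synpo2, a Z-disc and dense body protein that bundles actin, stood at 19.5 and 164 by 1 probe, a difference of 1.39 (2.61-fold), and its other probe was not well above background on either array. Smtn, smoothelin, a protein of contractile smooth muscle, had 2 measured probes on separate transcript accessions, with signals of 172 and 843 by one and 21.6 and 143 by the other. Their differences were 0.61 and 1.04, so the gene's mean of 0.83 (1.77-fold) was under 2-fold while 1 of its probes was just over it.

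These differences were next read beside those of relatives in the same protein families, a list of 17 genes of which 13 were measured on both arrays. Most are non-muscle forms, but Mylk2, Mylk3, Lmod2 and Myl6 are not confined to non-muscle cells. In the main scaling the relatives were higher too, in 13 of 13, but by less, with a median of 0.72 (1.64-fold) and 4 at least 2-fold higher. Of all genes measured, 41.3% were higher and 12.8% at least 2-fold higher. Myh9, the non-muscle myosin heavy chain, stood at 0.66, which is 1.47 below Myh11, and Myh10, the other one, at 1.78, only 0.35 below. The light chains Myl12a, Myl12b and Myl6 stood at 0.66, 0.20 and 0.71, between 1.28 and 1.79 below Myl9. Tagln2 was at 0.73, which is 0.81 below Tagln, and Synpo at 0.02, which is 1.36 below Synpo2, although the 3 Synpo probes ranged from -1.63 to 2.14 and its sign changed with the setting. The tropomyosins Tpm3 and Tpm4 were at 0.72 and 1.12, under Tpm2 by 0.87 and 0.46.

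The actins ran the other way. The cytoplasmic actins Actb, at 0.77, and Actg1, at 0.60, were above Actg2, whose difference minus theirs was -0.33 and -0.16. Cnn2 at 2.12 and Cnn3 at 1.17, calponins found outside muscle, were both at least 2-fold higher. Cnn1 had only a bound, so it is not counted beside them. The Myl9, Tagln and Synpo2 gaps kept their sign under each setting in which both genes were measured. The gap of Myh11 to Myh9 became -0.15 and that to Myh10 became -0.26 with normexp background correction and 75th percentile scaling. The gaps of Tpm2 became -1.10 and -1.32 to Tpm3 and Tpm4 once probes below background were let in. Probes of such similar genes, the actins above all, can take up each other's transcripts, and the probe sequences were not used here.

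**Figure D3:**
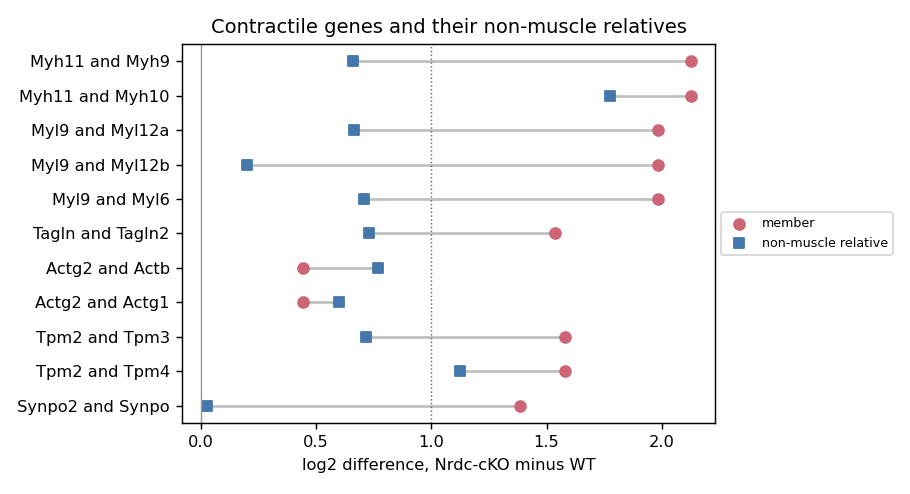
Log2 difference, Nrdc-cKO minus WT (x axis), of measured contractile genes (circles) and relatives of the same protein family (squares), 1 array per group. The squares are labelled non-muscle, although Myl6 is not confined to non-muscle cells. The member lies to the right in 9 of the 11 pairs, and Actg2, at 0.44, lies to the left of Actb and Actg1.

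Further structural genes of smooth muscle, a list of 18 filament, dense body and adhesion genes, went with the contractile genes in part. Of 15 measured, 8 reached 2-fold upwards and 0 downwards, against 12.8% and 17.3% of all genes measured. The median was 1.04. The other 7 did not reach 2-fold, and 4 of the 15 were negative. Among those 7, Cald1 stood at 0.46, Csrp1 at 0.02 and the tropomyosin Tpm1 at -0.11, whose sign changed with the setting. Filip1l, a filamin-interacting protein, had the highest difference at 2.26, and Acta2, the alpha actin of vascular smooth muscle and myofibroblasts, stood at 1.91 over 2 probes that read 1.20 and 2.61. Acta2 was thus 1 of the genes that passed 2-fold while Actg2 did not. Des, desmin, the muscle intermediate filament protein, passed background in Nrdc-cKO alone and was at least 3.09-fold higher, and the actinin-binding Pdlim3 at least 6.54-fold. The lowest were the smoothelin-like gene Smtnl2 at -0.91 and the crosslinker Actn1 at -0.22, which turned to 0.27 in the value table.

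Genes of contraction signalling were mixed. Of 16 measured of 22 listed, 6 reached 2-fold upwards and 1 downwards, against 12.8% and 17.3% of all genes measured. The median was 0.58. The endothelin receptor Ednra (2.22) and the angiotensin receptor Agtr1a (1.96), which raise calcium in vascular smooth muscle, were the highest, and Cacna1c, the L-type calcium channel, was at least 3.76-fold higher by a bound. The muscarinic receptor Chrm3, which acinar cells carry as well, was lower at -1.15, and the cyclic GMP phosphodiesterase Pde5a stood at -0.48. Chrm3 did not reach 2-fold after loess (-0.51), in the value table (-0.66) or with normexp and quantile scaling (-0.42), among others, and turned to 0.73 with spike-in scaling.

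The transcriptional regulators were spread on both sides of 0. Of 10 measured of 12 listed, 2 reached 2-fold upwards and 1 downwards, against 12.8% and 17.3% of all genes measured. The median was 0.08. Srf stood at 0.10 (1.07-fold), and Mrtfb, an SRF coactivator of the myocardin family, at -0.52, although its 2 measured probes read -1.43 and 0.39 and its sign changed with the setting. Myocd, myocardin itself, was not well above background on either array. Mef2c (2.14-fold) and Klf4 (2.06-fold), a factor known to repress contractile genes, were just past 2-fold. The Mef2c value is the mean of 2 probes that read 0.21 and 1.98 on the log2 scale. Nkx3-2, a factor of gut and pancreatic mesenchyme, was lower at -1.20. It did not reach 2-fold after loess (-0.21), with normexp and quantile scaling (-0.42) or in the value table (-0.70), and turned to 0.69 with spike-in scaling. With normexp and the 75th percentile, Mef2c stood at 0.40, and Ednra and Agtr1a at 0.85 and 0.80.

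**Figure D4:**
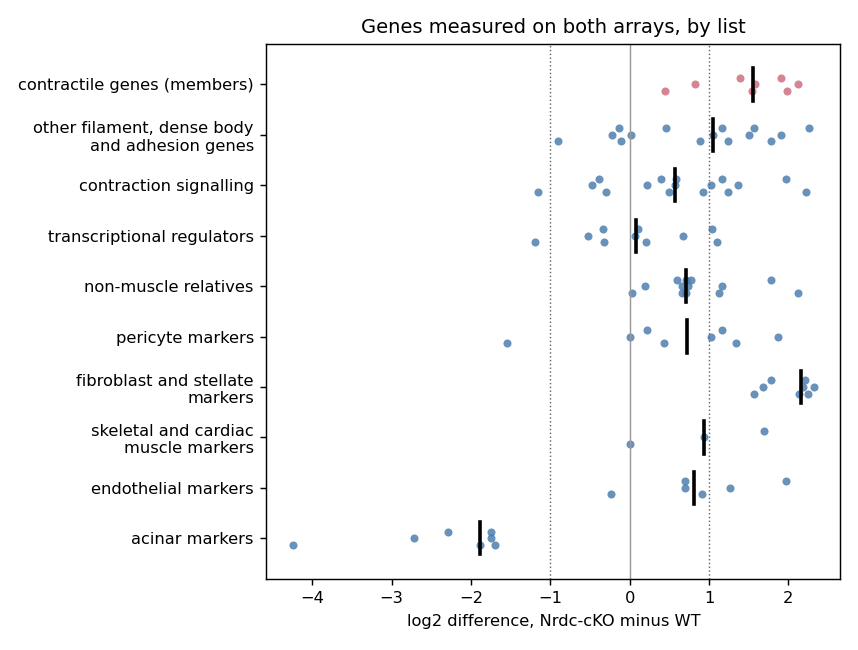
Log2 difference, Nrdc-cKO minus WT (x axis), of each gene measured on both arrays (points, spread vertically for view) in 10 lists, with the list median as a black bar and 2-fold as dotted lines. In the main scaling the contractile genes have a median of 1.56, the regulators of 0.08, the fibroblast and stellate markers of 2.16 and the acinar markers of -1.88.

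Markers of other cells that share or adjoin these genes moved with them in part. All 8 fibroblast and stellate cell markers were at least 2-fold higher, against 12.8% of all genes measured. Their median was 2.16, from 1.56 (Dpt) to 2.33 (Lum), and their summed level went from 224 to 855 times the array's 75th percentile. The summed level of the contractile genes' probes went from 23.6 to 72.6. Of the 8 pericyte markers, 4 reached 2-fold upwards and 1 downwards, against 12.8% and 17.3% of all genes measured. The median was 0.72. Rgs5 (1.87) and Abcc9 (1.34) were the highest and Mcam (-1.55; 0.33 with spike-in scaling) and Higd1b (0.999-fold) the lowest, and the summed level went from 106 to 53.5, most of it from Mcam. Of 6 endothelial markers, 2 reached 2-fold upwards and 0 downwards, against the same shares of all genes, and the median was 0.81. The part of these cells in the contractile gene differences was not tested.

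Few markers of skeletal and cardiac muscle or of gut were well above background in WT. Of 14 skeletal and cardiac muscle markers, 4 were so in WT and 9 in Nrdc-cKO, 3 of them by the same probe, and Ckm, Mb, Myh1, Myh4 and Myh6 were well above background on neither. Of all named probes, 54.6% in WT and 68.7% in Nrdc-cKO were well above background. Of the 3, Actc1, cardiac actin, stood at 1.70, Tnni2 at 0.94 and Tnnt3 at 0.004. The summed level of this list went from 1.96 to 4.74. A further 5 passed background in Nrdc-cKO alone, as did 2834 of all 22911 genes with a named probe. Myl1, Myh2 and Acta1 among these had bounds of 4.74-fold, 3.64-fold and 2.33-fold higher, under the limit stated for bounds above. Tnnc2 and Tnnt2 were too dim there for a bound above 1. The part of skeletal and cardiac muscle in the contractile gene differences was not tested. Of 8 gut epithelial markers, 6 were well above background on neither array, Cdx1, Cdx2 and Sis among them, and the summed level went from 1.18 to 0.99. Vil1, the marker measured, stood at -0.10. The islet markers (6 of 6 at least 2-fold higher, against 12.8% of all genes measured) also differed between the arrays. So did the adipocyte markers (all 5 detected on the Nrdc-cKO array and 1 on the WT array), whose summed level went from 17.7 to 622. The 4 detected in Nrdc-cKO alone had bounds from 27.2-fold (Plin1) to 1714-fold (Cfd) higher, under the same limit. Of all 22911 genes with a named probe, 2834 were detected in Nrdc-cKO alone. The part of the islet and adipocyte markers in the result was not tested either.

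The direction of the contractile genes was kept under the other scalings, while their size was not. The 1.56 median became 2.05 in the authors' deposited value table. It became 3.44 after scaling to the spike-in controls. These shift the median of all genes by 0.50 and 1.88. Relative to the median of all genes the contractile genes stood 1.74 higher in the main scaling and between 1.26 and 1.78 higher under the other settings. The lowest of these came from normexp correction, whose added offset shrinks the differences of dim probes. With normexp and the 75th percentile, Synpo2 was at 0.26, Myh11 just under 2-fold, and 4 members were at least 2-fold higher, against 9.58% of all genes. Tpm2 turned to -0.19 with no filter on dim probes, since its second probe then entered the mean. Myl9 and Tagln stayed past 2-fold under all 11 settings tried, and Mylk under all 10 in which it was measured.

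**Figure D5:**
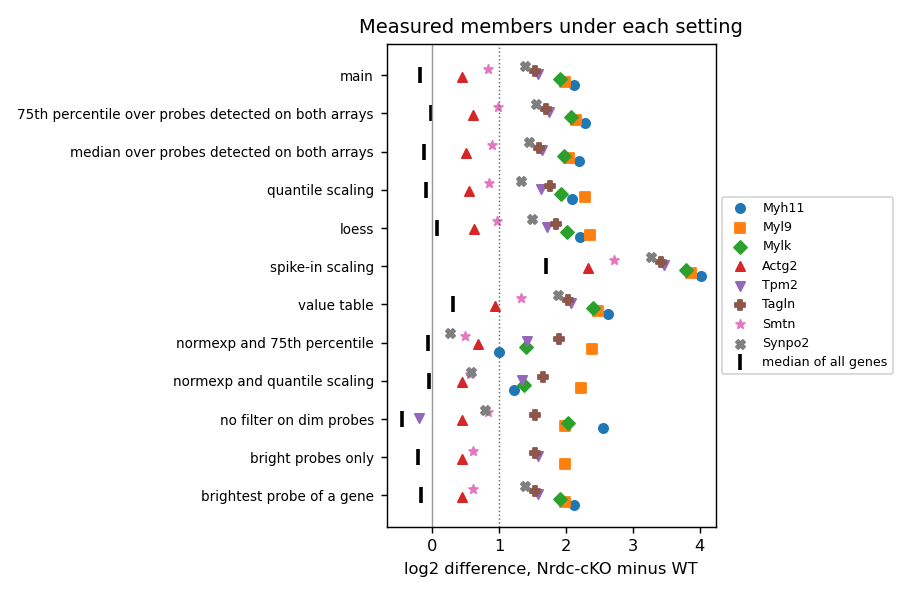
Log2 difference, Nrdc-cKO minus WT (x axis), of the 8 measured contractile genes (symbols) and the median of all genes (black bars) in the main setting and under 11 others. With spike-in scaling all genes move by 1.88 to the right, with normexp Myh11 and Synpo2 move towards the median, and with no filter Tpm2 falls to -0.19.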

How the data were processed

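The members and all gene lists were chosen with earlier results of these data known. Per the file headers, the deposited scanner files came from Agilent Feature Extraction 12.0.3.1 (11.5.1.1 per the submitters' processing notes) and give a processed intensity per spot, corrected for background and spatial trend and not scaled between arrays, with its error and flags stored as other values per spot. The authors' deposited value table holds that intensity times 1 constant per array (4.37 for WT, 1.92 for Nrdc-cKO), linear and uncentred, with column medians of 42.2 and 65.5 over the spots used; no source used here says how the constants were set.

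Flagged outlier spots (80 and 74) were left out, repeat spots averaged and levels set as log2 intensity minus the array's 75th percentile. A probe counted as above background when at least 0.5 of its spots were flagged so. Probes were named through unversioned RefSeq accessions in a GRCm38.p6 gene table, which lists Nrdc under an older symbol (32993 of 35885 probes with such an accession matched). The array design refers to mm9, so no probe coordinates are given. Between repeat spots of 291 probes the median SD of the log2 difference was 0.032, but only 2 of these lay below the 75th percentile, with a median SD of 0.28. From the structural, signalling, regulator and pericyte lists the 2 highest and 2 lowest measured genes and the largest bound each way are named. Acta2, Des, Myocd, Srf, Tpm1, Cald1, Csrp1 and all measured relatives in the family comparison are named too. The other marker lists are given by summaries and some of their genes. A list of 5 markers of interstitial cells of Cajal and enteric glia, with Kit at -1.07, had 3 measured and a median of -0.23. 1 listed acinar marker is not reported here. The scaling and averaging steps were tested on simulated data, made by adding known shifts and noise to the WT array. Detection was copied from the WT array there, so bounds and detection on 1 array only were not tested. Python 3.11.15, R 4.3.3 and limma 3.58.1 were used.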

Additional observations from a re-analysis of the deposited data

How the results depend on the processing

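No paired analysis was possible because there was 1 array per group, which also leaves no replicate to omit. Matching probes by a gene name column was planned but not run, because these files have no such column. The median of the measured contractile genes, 1.56, was 1.69 with quantile scaling, 1.72 when the 75th percentile was taken over detected probes, 1.62 when their median was used, 2.05 in the value table, 1.78 after loess and 3.44 after spike-in scaling. It was 1.20 and 1.28 with normexp followed by 75th percentile or quantile scaling, and 1.18 over 10 genes with no filter on dim probes. With Cnn1 at its bound, a choice made after the data were seen, it was 1.58. The 6 genes at least 2-fold higher became 3 of 5 with bright probes only, as fewer genes were measured (11.1% of all genes there), and 1 (Myh11) at a 4-fold threshold, by construction. They were 4 and 5 of 8 with normexp and the 75th percentile or quantile scaling (9.58% and 8.83% of all genes), 5 of 10 with no filter (13.6%), 7 in the value table (22.2%) and 8 with spike-in scaling (79.5%). Genes at least 2-fold lower were 0 under every setting run.

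Among named genes, Tpm2 turned to -0.19 with no filter on dim probes. Mrtfb turned from -0.52 to 0.39 by its brightest probe and with bright probes only, 0.086 after loess and 0.15 with normexp and quantile scaling. In the value table Pde5a turned to 0.015, Actn1 to 0.27, Tpm1 to 0.39 and Vil1 to 0.395. Actn1 was at 0.0023 with normexp and the 75th percentile. Synpo and Higd1b, at 0.02 and -0.00092, also changed sign, to -1.63 by the brightest Synpo probe and to 0.49 for Higd1b in the value table. With spike-in scaling, Chrm3 turned to 0.73, Nkx3-2 to 0.69, Mcam to 0.33, Kit to 0.81, Cpa1 to 0.19, Ctrb1 to 0.14, Cel to 0.0014 and Prss2 to 0.14. With normexp and quantile scaling Ctrb1 turned to 0.025 and Prss2 to 0.014, and Prss2 was at 0 with quantile scaling. Signal over background limits Cnn1, Lmod1, Des and the second probes of Tpm2 and Synpo2. For the other changes the cause was not tested.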
